A study of Rattus norvegicus with 3 samples.

Results

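Transcripts of the respiratory chain and of ATP synthase were followed across 3 rat expression arrays, taken by name: a probe set belonged to the group if its single gene symbol began with Nduf, Sdha to Sdhd, Uqcr, Cox4 to Cox8 or Atp5. This gave 55 of the 4736 genes on the array, read by 101 of its 8799 probe sets. There were 26 genes named for complex I, 1 for complex II, 3 for complex III, 12 for complex IV and 10 for complex V, with the assembly factor genes Ndufaf3 and Sdhaf2 and the pseudogene Cox6c-ps1 kept apart. Each gene was read from its brightest probe set. The 3 arrays carry the time labels 0.0 h, 0.1 h and 1.0 h, with 1 array for each label. For every array the labels name pineal gland and adrenal medulla as the source, rat as the organism and total RNA as the molecule. They do not say whether an array holds 1 of these tissues or both, so differences between arrays and differences in tissue cannot be told apart. A treatment course is named. The sources used here do not give its agent, the strain, the age or the number of animals, or say whether 0.1 h is meant as a true time.

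Intensities below are linear, after the arrays were scaled to each other. A value counted as measured when it was above a floor of 262.9, the 40th percentile of all values, and a difference was taken only where both arrays were above it. Because there was 1 array per label, no value has a replicate error and no test of the conditions was possible. Across all genes measured, the SD of the log2 differences, taken from the median absolute deviation, was 0.51 between 0.1 h and 0.0 h, 0.43 between 1.0 h and 0.0 h and 0.56 between 1.0 h and 0.1 h. It describes the spread over genes and not an error of a condition.

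Complexes I to IV of the inner mitochondrial membrane pass electrons from NADH and succinate to oxygen and, complex II apart, pump protons while doing so. ATP synthase, also called complex V, lets the protons flow back and makes ATP from ADP and phosphate. Most subunits are coded in the nucleus, and a few hydrophobic ones are coded in the mitochondrial DNA. The pineal gland turns serotonin into melatonin at night and is rich in mitochondria.

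The 3 arrays had deposited medians of 401.5 to 457.6, and 58.8% to 60.9% of the non-control probe sets passed the floor. Of 5 pineal markers, Tph1, Asmt, Pdc and Sag passed it on all 3 arrays and Aanat on 2. Of 5 adrenal medulla markers, Pnmt and Chgb did so, while Th, Dbh and Phox2a passed it on none. Dividing the 3' by the 5' control probe set, a measure of RNA integrity, gave for beta-actin 10.4 at 0.0 h, 17.8 at 0.1 h and 44.4 at 1.0 h, and for GAPDH 15.3, 18.6 and 14.1. The summed intensity of 7 adipocyte markers was 27137, 44808 and 28245, with Plin1, Fabp4 and Ucp1 below the floor on all 3 arrays and only Lep, Cfd, Cidea and Lpl above it. The largest share of the sum was Lpl, with 17125, 31898 and 15980. Lep, Cfd and Lpl were higher at 0.1 h than at 0.0 h, while Cidea was 2.67-fold lower. The summed intensity of 6 leukocyte markers was 3347, 4880 and 4392, with 3 of them above the floor on all 3 arrays. Of these, Ptprc and Lyz2 were higher at 0.1 h than at 0.0 h and Cd74 was lower. The part of RNA breakdown and of other cell types in the differences below was not tested. In whole tissue, fewer cells of a type and less RNA per cell cannot be told apart.

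Of the 55 genes, 52 were above the floor on all 3 arrays. The catalytic complex I gene Ndufs1 was below it at 0.0 h, reading 247.4 at 0.0 h, 433.4 at 0.1 h and 370.5 at 1.0 h. The heart and muscle form Cox8b was also below it at 0.0 h, with 184.5, 402.0 and 346.0. The pseudogene Cox6c-ps1 passed it only at 0.1 h, with 254.8, 289.3 and 251.4. These 3 genes were dim throughout and are given only by these values where a difference would need the missing array.

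Respiratory chain and ATP synthase transcripts were most often highest on the 0.1 h array. Between 0.1 h and 0.0 h, 40 of 52 measured genes were higher and 12 lower, and 49.8% of all genes were higher. At least 2-fold higher were 12 of the 52, or 23.1%, against 5.68% of all genes, and at least 2-fold lower were 2, or 3.85%, against 4.71% of all genes. The median log2 difference was 0.55 over the 52 genes and 0.00 over all 2994 genes measured on both arrays. Just inside the 2-fold limit was Cox7a2l and just outside it was Cox6a1, both with a ratio of 2.00 after rounding.

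Between 1.0 h and 0.1 h most of these genes were lower again, with 44 of 54 lower and 10 higher, against 50% of all genes higher. At least 2-fold lower were 9 of the 54, or 16.7%, against 5.06% of all genes, and 1 was at least 2-fold higher, or 1.85%, against 4.04%. The median log2 difference was -0.37, beside 0.00 over all 3043 genes. Under quantile normalisation 2 were at least 2-fold higher and 7 lower, or 3.70% and 13.0%, against 4.71% and 4.68% of all genes. A scaling that equalised the spike-in controls, called spike-in scaling below, gave 2 and 2, or 3.70% each. Of all genes, 16.8% were at least 2-fold higher and 0.986% lower in that scaling. Between 1.0 h and 0.0 h the group was close to level: 27 of 52 were higher, against 51% of all genes, and the median was 0.05, beside 0.01 over all 3029 genes. At least 2-fold higher were 5 of 52, or 9.62%, against 2.34% of all genes, and at least 2-fold lower was 1, or 1.92%, against 2.64%. Under spike-in scaling these counts were 6, or 11.5%, and 0, against 5.05% and 1.32% of all genes. The comparisons with 0.0 h share that array, and the 0.1 h array enters 2 of the 3 comparisons.

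Spike-in scaling, which rests on 9 hybridisation controls, moved the median of all genes to -0.28 for 0.1 h against 0.0 h, 0.21 for 1.0 h against 0.0 h and 0.47 for 1.0 h against 0.1 h. The group's own medians there were 0.27, 0.25 and 0.10, so the last had turned positive. Relative to all genes the group lay 0.55 higher, 0.04 higher and 0.37 lower, the same distances as under the main scaling. This is fixed by construction, because spike-in scaling moves all genes of an array alike. In that scaling 2.67% and 10.2% of all genes were at least 2-fold higher and lower at 0.1 h than at 0.0 h, and 13.5% and 3.85% of the respiratory chain and ATP synthase genes.

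**Figure D1:**
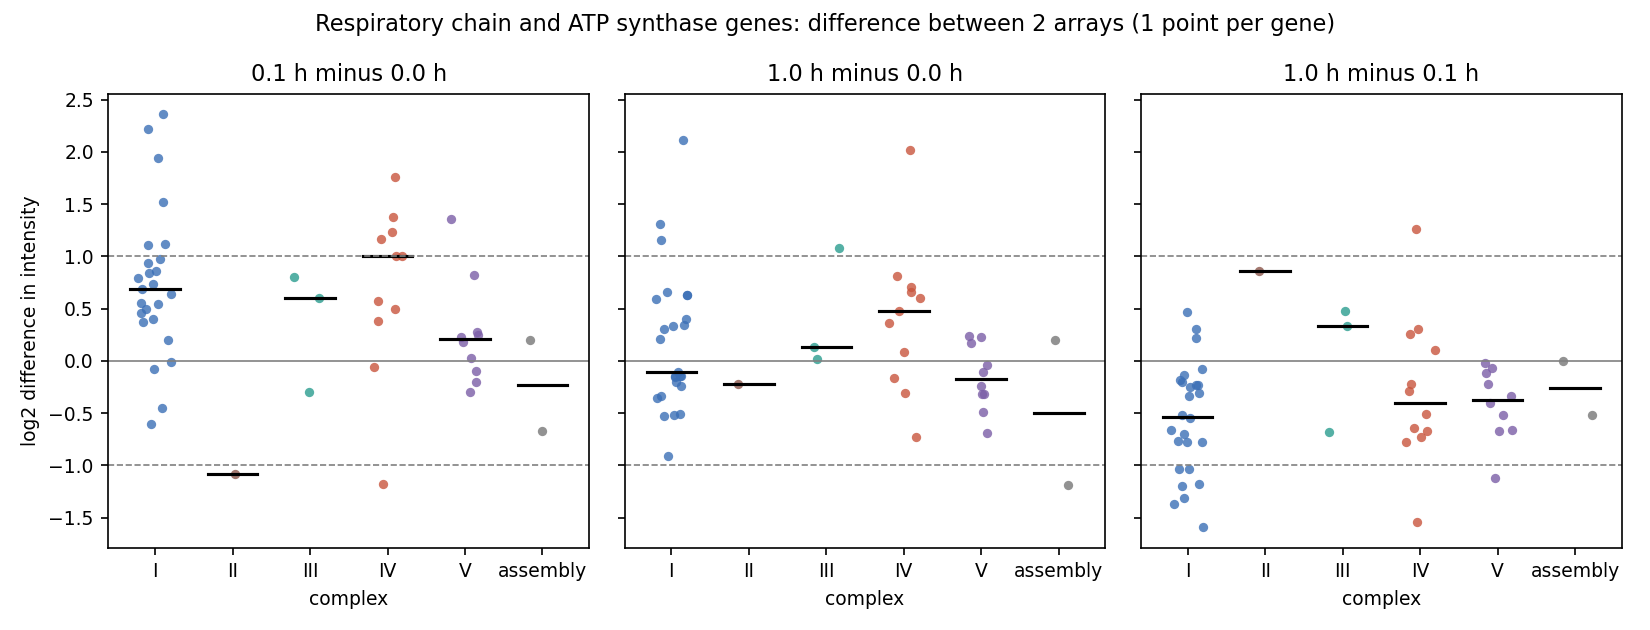
Each point is a gene, placed by its complex, with the log2 difference in intensity between 2 arrays on the vertical axis, black bars for medians and dashed lines for 2-fold. In the left panel complexes I and IV lie mostly above 0, with medians of 0.69 and 1.00, and complex V has 0.21. Under spike-in scaling these were 0.41, 0.72 and -0.07. In the right panel the medians of complexes I, IV and V are below 0, which under spike-in scaling were -0.06, 0.07 and 0.10.

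Over the 52 genes above the floor on all 3 arrays, 36 had their highest value at 0.1 h, which is 69.2%, while 36% of all genes did. The 0.0 h array was the highest for 9 genes and the 1.0 h array for 7, where 31.4% and 32.6% of all genes were highest. By complex, the 0.1 h array was highest for 21 of 25 complex I genes, 6 of 11 complex IV genes, 7 of 10 complex V genes and 1 of 3 complex III genes. The complex II gene Sdha was instead lowest at 0.1 h.

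**Figure D2:**
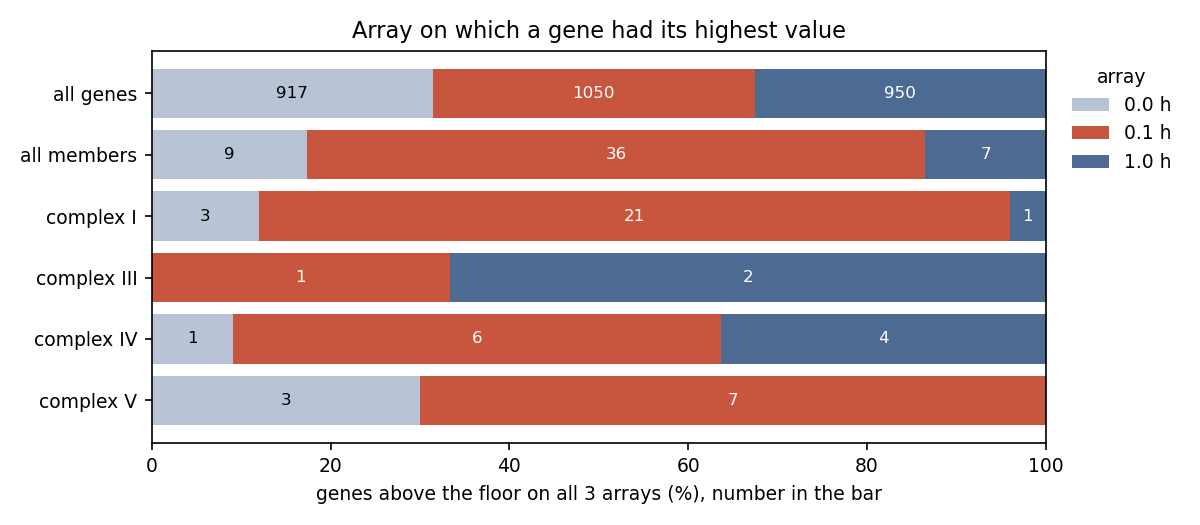
Bars show the share of genes, in percent, whose highest value fell on the 0.0 h, 0.1 h or 1.0 h array, with the number of genes in each segment, for genes above the floor on all 3 arrays. Complex I has the widest 0.1 h segment, with 21 of 25 genes, against 1050 of 2917 for all genes.

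Complex I takes electrons from NADH. Its transcripts made up the largest set, and 21 of 25 measured at both labels were higher at 0.1 h than at 0.0 h, 6 of them at least 2-fold, with none 2-fold lower and a median log2 difference of 0.69. Over all genes, 49.8% were higher in that comparison, 5.68% at least 2-fold. From 0.1 h to 1.0 h, 23 of 26 were lower, 7 of them at least 2-fold, with a median of -0.53. There 50% of all genes were higher and 5.06% at least 2-fold lower. Under spike-in scaling the complex I medians of 0.69 and -0.53 were 0.41 and -0.06. Against 0.0 h, the 1.0 h array had 12 of 25 higher and a median of -0.11, which was 0.10 with quantile normalisation and 0.09 under spike-in scaling.

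The Ndufb genes code accessory subunits, mostly of the membrane arm, and held the widest differences. Ndufb6 read 2134 at 0.0 h, 10957 at 0.1 h and 9221 at 1.0 h, and values are given in that order from here on. It was low on the 0.0 h array alone, 5.13-fold below 0.1 h and 4.32-fold below 1.0 h. The other Ndufb6 probe set had 2043, 3569 and 2714, with log2 differences from 0.0 h of 0.80 and 0.41 where the brightest had 2.36 and 2.11. So both Ndufb6 probe sets ordered the arrays alike and differed in size.

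Ndufb9 had 6752, 31350 and 10421. Its high value was at 0.1 h alone, 4.64-fold above 0.0 h and 3.01-fold above 1.0 h, from 1 probe set. Ndufb5 had 4167, 16039 and 9312, a 3.85-fold and a 2.23-fold higher level than at 0.0 h, while its other probe set stayed below the floor. Averaging both Ndufb5 probe sets gave log2 differences from 0.0 h of 1.34 and 0.92, where the brightest gave 1.94 and 1.16. Ndufb1 had 582.1, 1667 and 1447 and was 2.86-fold and 2.49-fold above 0.0 h. Like Ndufb6, Ndufb1 was low at 0.0 h and nearly level between the later arrays.

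A second pattern within the Ndufb genes was a low value at 1.0 h. Ndufb2 had 8560, 15527 and 5989, so that it was 2.59-fold lower at 1.0 h than at 0.1 h. Ndufb10 had 5328, 8591 and 3742 and was 2.30-fold lower. For both, the 1.0 h array was the lowest of the 3. Ndufb3 had 11872, 19775 and 15667 and stayed within 1.67-fold.

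Ndufb8 and Ndufb11 did not share the 0.1 h maximum. Ndufb8 had 44553, 44160 and 51542, within 1.17-fold throughout, and its 4 probe sets had log2 differences of -0.09 to 0.13 between 0.1 h and 0.0 h. Ndufb11 had 24378, 16030 and 22166 and was 1.52-fold lower at 0.1 h than at 0.0 h. Among the membrane arm genes Ndufc1 and Ndufc2 the directions also differed. Ndufc1 had 3685, 7227 and 3200, 2.26-fold lower at 1.0 h than at 0.1 h, and its other probe set had 3304, 3627 and 1512. Ndufc2 had 32990, 24094 and 29964, lowest at 0.1 h.

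The Ndufa genes code accessory subunits of both arms. At 0.1 h 6 of 7 were higher than at 0.0 h, 1 at least 2-fold, and at 1.0 h all 7 were lower than at 0.1 h. Ndufa8, in the membrane arm, had 6351, 8377 and 3380 and was 2.48-fold lower at 1.0 h than at 0.1 h. Ndufa4 was named for complex I and was later found to sit in complex IV. It had 8333, 11751 and 5765, 2.04-fold lower at 1.0 h than at 0.1 h, and was under 2-fold with the values as deposited, where its log2 difference was -0.94.

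Its relative Ndufa4l2, known as a hypoxia-induced gene, had 421.1, 914.0 and 534.6, close to the floor, and was 2.17-fold higher at 0.1 h than at 0.0 h. None of the other 4 Ndufa4l2 probe sets was above the floor on 2 arrays. Ndufa3, Ndufa5 and Ndufa6 were 1.47-fold, 1.46-fold and 1.38-fold higher at 0.1 h, and Ndufa9 was level, with 3580, 3389 and 3217. Ndufab1, which codes the mitochondrial acyl carrier protein, had 44923, 57886 and 35536, and its 3 probe sets were all higher at 0.1 h and lower at 1.0 h.

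The Ndufs and Ndufv genes include the iron-sulfur subunits that carry electrons through the peripheral arm. All 4 Ndufs genes measured at 0.0 h and 0.1 h were higher at 0.1 h, and all 5 were lower at 1.0 h than at 0.1 h. Ndufs8, an iron-sulfur subunit, had 6197, 13387 and 9312 and was 2.16-fold higher at 0.1 h than at 0.0 h. The brightest and 2 other Ndufs8 probe sets were higher at 0.1 h, with log2 differences of 1.11, 0.68 and 0.42, and the mean of all probe sets gave 0.92. Ndufs6, an accessory zinc-binding subunit, had 22182, 38254 and 18785 and was 2.04-fold lower at 1.0 h than at 0.1 h. As deposited, the Ndufs6 log2 difference was -0.93, under 2-fold.

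Other genes of this arm stayed under 2-fold. Ndufs4, a late-assembled accessory subunit, had 8857, 17051 and 13747, 1.93-fold higher at 0.1 h. Ndufs7, an iron-sulfur subunit, had 5487, 8524 and 4979. Ndufv2, another iron-sulfur subunit, had 6895, 12323 and 10891. Ndufv3 had 17143, 19680 and 13488 and varied least of these. Ndufv2 and Ndufs4 were also 1.58-fold and 1.55-fold higher at 1.0 h than at 0.0 h, while Ndufs7 and Ndufv3 ended below their 0.0 h values.

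**Figure D3:**
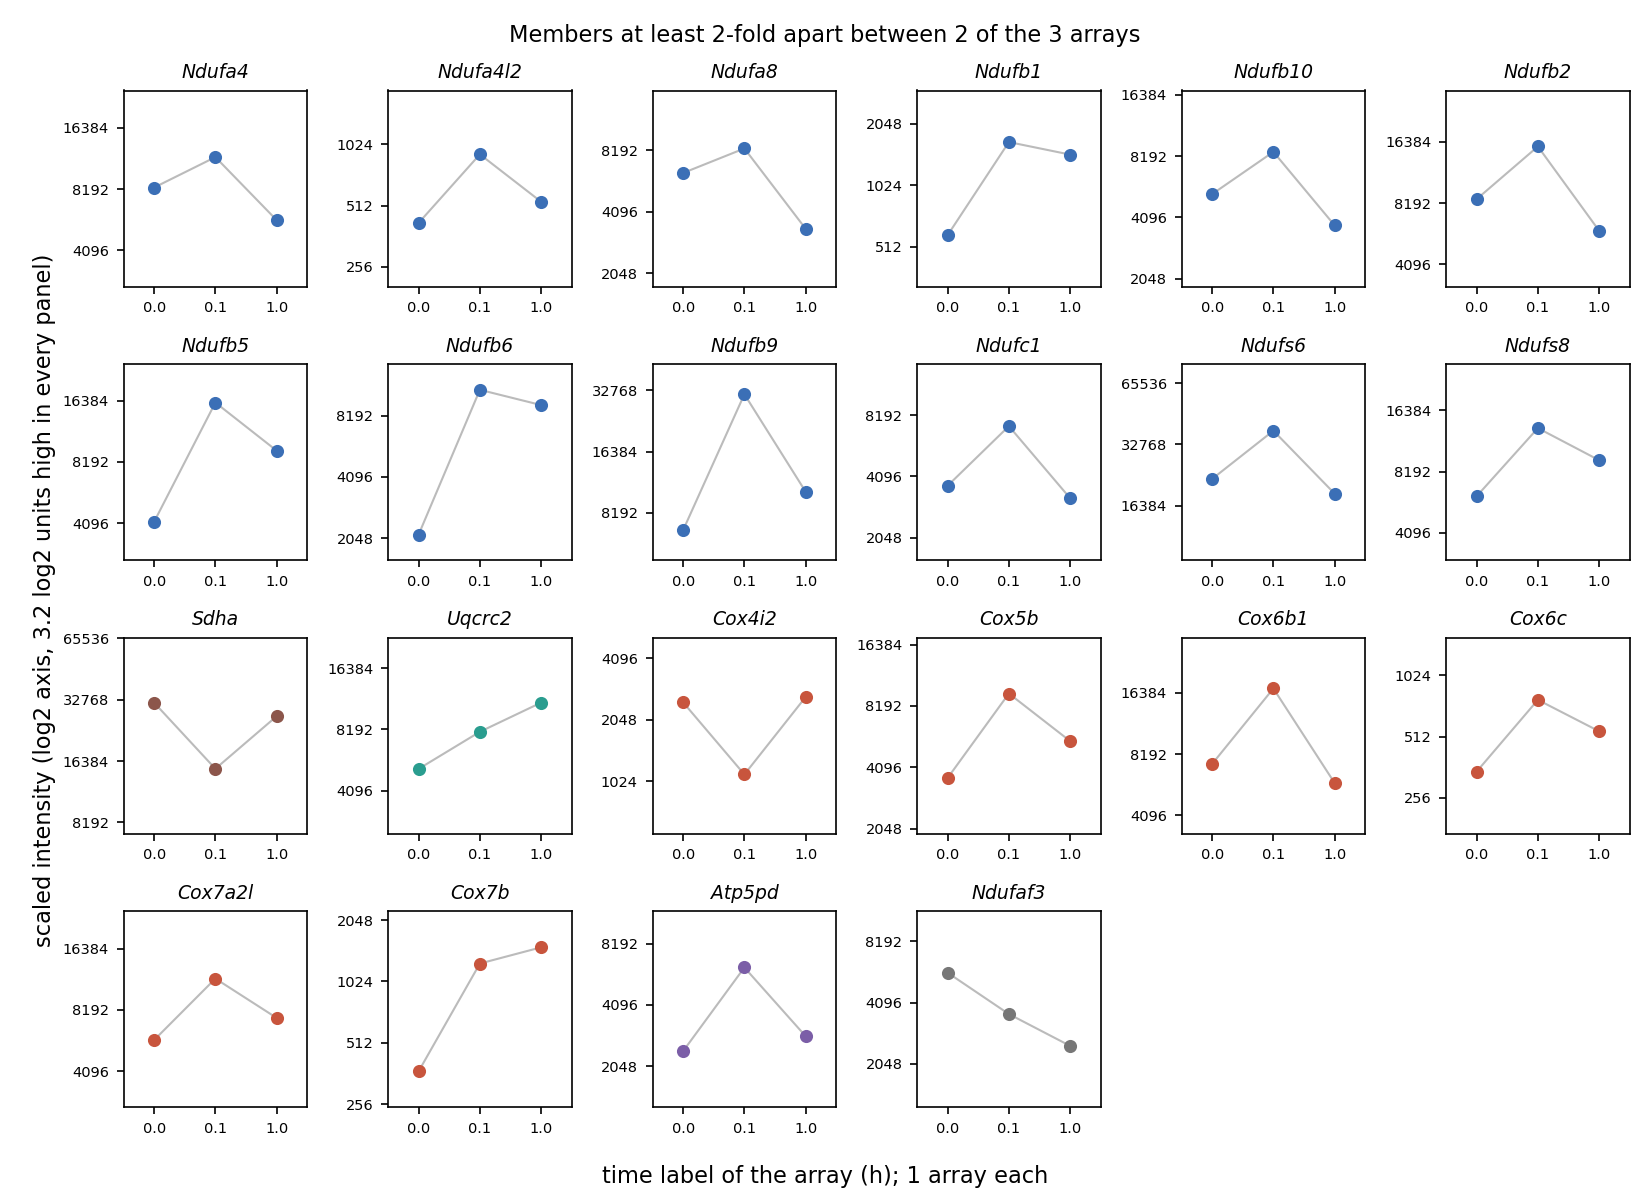
Each panel shows 1 of the 22 genes at least 2-fold apart between any 2 arrays, with its scaled intensity on a log2 axis of equal height, the time label of the array in hours on the horizontal axis, and lines that only join the 3 values. Most panels peak at 0.1 h, while Sdha and Cox4i2 dip there, Ndufb6, Ndufb1 and Cox7b are low at 0.0 h alone, and Ndufaf3 is highest at 0.0 h.

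Genes of the chain are known targets of nuclear factors such as NRF1, of ETS-family factors and of YY1, so the sequence around the annotated gene starts was searched. RefSeq promoters of the assembly GRCr8, from 250 bases before to 50 bases after the start, were found for 47 of the 55 genes by gene ID. Exact matches on both strands were counted for GCATGCGC (NRF1 core), CCGGAAG (ETS core), AAGATGGC (YY1 core) and CCAAT. The YY1 core was present in 11 of 47 promoters, 23.4%, and in 3.17% of all 33469 promoters of the table or 3.89% of the 4191 promoters of genes on the array. The ETS core was present in 10, 21.3%, against 8.75% and 11.9% of these sets, the NRF1 core in 2, 4.3%, against 2.47% and 3.1%, and CCAAT in 17, 36.2%, against 37.5% and 37.8%. The ETS and YY1 cores can overlap by their shared letters AAG, which happened in none of the printed stretches, and no test was made.

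In 8 of the 47 promoters, 17%, the YY1 core lay after the start on the strand of the gene, where 1.1% of all promoters and 1.91% of those of genes on the array had it. Its first base was 2 to 24 bases from the start, counting the start base as 1. Of these 8 genes, 7 are complex I genes and 1 is Atp5po. The motif contains ATG, and whether these matches are start codons was not tested. The stretches below run from 50 bases before the start through its first 30 bases, 5' to 3' on the strand of the gene, and the capitals mark the YY1 core. They are shown because the motif recurs at a like place in 7 of these genes, and the Ndufs6 match ends beyond the stretch.
Ndufa3 (chr1:74515529-74515608, minus strand): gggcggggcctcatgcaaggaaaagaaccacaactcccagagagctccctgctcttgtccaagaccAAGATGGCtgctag
Ndufa6 (chr7:115750288-115750367, minus strand): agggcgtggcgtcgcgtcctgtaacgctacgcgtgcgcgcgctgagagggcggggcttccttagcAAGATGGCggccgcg
Ndufa9 (chr4:161374141-161374220, minus strand): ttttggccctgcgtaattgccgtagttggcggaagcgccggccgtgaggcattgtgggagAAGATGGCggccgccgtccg
Ndufb8 (chr1:253362907-253362986, minus strand): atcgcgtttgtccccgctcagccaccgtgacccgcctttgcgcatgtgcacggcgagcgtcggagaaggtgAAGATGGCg
Ndufs4 (chr2:47794885-47794964, minus strand): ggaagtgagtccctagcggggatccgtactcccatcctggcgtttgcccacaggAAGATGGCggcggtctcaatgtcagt
Ndufs7 (chr7:10110469-10110548, minus strand): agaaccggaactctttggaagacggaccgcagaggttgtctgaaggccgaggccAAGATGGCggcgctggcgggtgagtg
Atp5po (chr11:44657454-44657533, minus strand): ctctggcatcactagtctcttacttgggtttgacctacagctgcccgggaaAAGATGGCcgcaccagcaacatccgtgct

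The same stretches of the genes that stood farthest above 0.0 h at both later labels hold none of the 3 factor cores, which says only that those letters are not there.
Ndufb1 (chr6:126888835-126888914, minus strand): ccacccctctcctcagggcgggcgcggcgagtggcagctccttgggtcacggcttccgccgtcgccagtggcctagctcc
Ndufb5 (chr2:117447555-117447634, plus strand): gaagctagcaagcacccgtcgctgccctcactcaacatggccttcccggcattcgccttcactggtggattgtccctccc
Ndufb6 (chr5:60206123-60206202, minus strand): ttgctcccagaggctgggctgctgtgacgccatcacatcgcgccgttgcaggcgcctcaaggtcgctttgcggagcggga
Cox7b (chrX:75148986-75149065, plus strand): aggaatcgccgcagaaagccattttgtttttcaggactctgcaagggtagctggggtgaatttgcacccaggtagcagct

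The values of genes with and without a core are given side by side, first for the YY1 core. Between 0.1 h and 0.0 h, the 11 genes with the YY1 core had a median log2 difference of 0.46, from -0.08 in Ndufa9 to 1.12 in Ndufa4l2. The 34 measured genes without the YY1 core, some of which hold an ETS core, had a median of 0.55, from -1.08 in Sdha to 2.36 in Ndufb6. At least 2-fold higher were 1 of the 11 and 8 of the 34. For the ETS core the medians in that comparison were 0.46 over 9 genes with it and 0.56 over 36 without. Between 1.0 h and 0.0 h they were 0.48 and -0.14, and between 1.0 h and 0.1 h -0.12 and -0.52. These medians describe genes on the same arrays, and their differences were not tested.

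**Figure D4:**
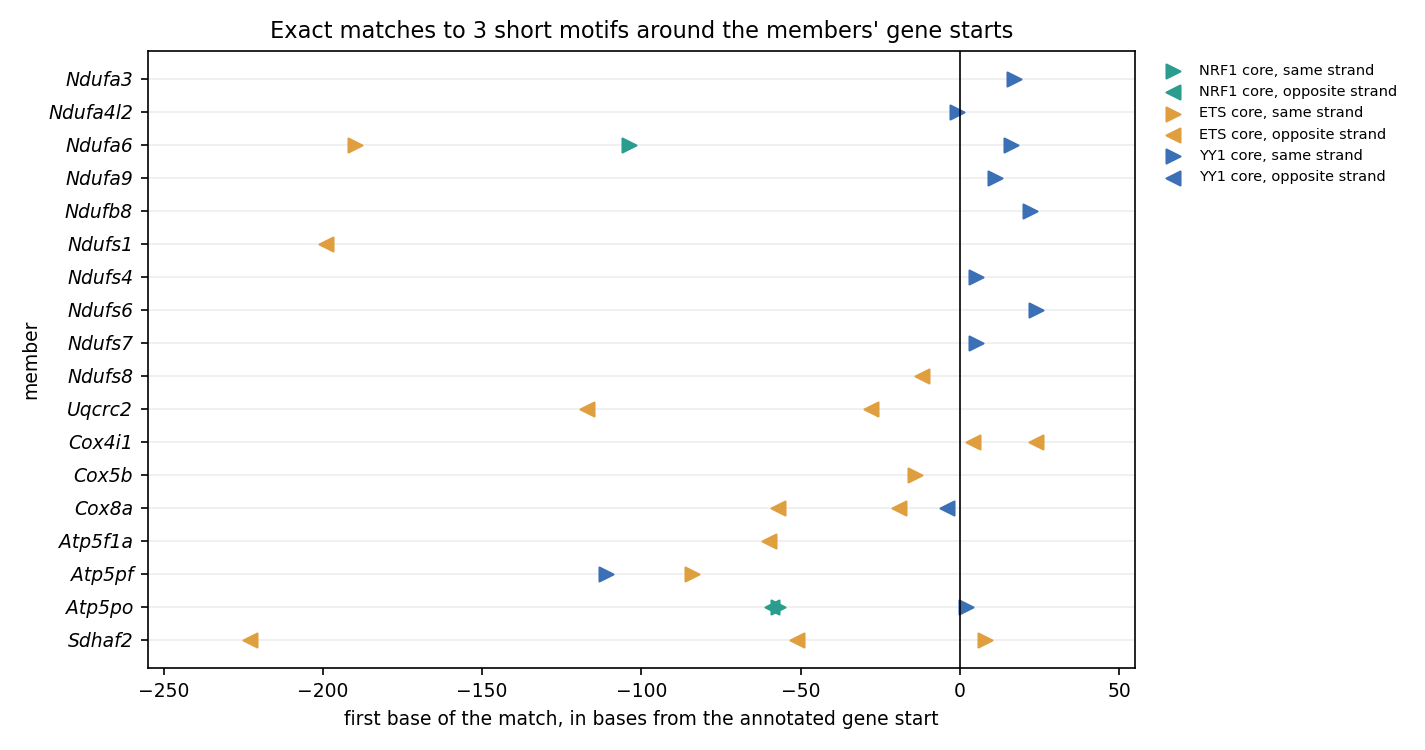
Triangles mark the first base of each exact match to the NRF1, ETS or YY1 core, in bases from the annotated gene start, for the 18 genes with a match, and point right where the match is on the strand of the gene. The YY1 core gathers just right of the start in 8 genes, most of them of complex I, while ETS cores are spread over the promoter.

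Complex II oxidises succinate and also belongs to the citric acid cycle. Only its flavoprotein gene Sdha was on the array under a single symbol, with 31689, 15015 and 27193 from 1 probe set. Sdha was low at 0.1 h alone, 2.11-fold below 0.0 h and 1.81-fold below 1.0 h, against the direction of most complex I genes. Sdhaf2, which helps attach the flavin to Sdha, had 8649, 9922 and 9904 and stayed within 1.15-fold.

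Complex III passes electrons to cytochrome c, and its 3 genes gave 3 different patterns. Uqcrc2, a core subunit, had 5249, 7982 and 11100 and was 2.11-fold higher at 1.0 h than at 0.0 h, with 0.1 h between them. Uqcrfs1 codes the Rieske iron-sulfur protein and had 16292, 28420 and 17793, highest at 0.1 h. A second Uqcrfs1 probe set, drawn from the same sequence, followed it with 1694, 3379 and 1738, while another was nearly flat with 12899, 11619 and 12048. Uqcr11, a small subunit, had 20585, 16678 and 20898 on its brightest probe set and 10920, 15120 and 7959 on the other. The Uqcr11 probe sets thus opposed each other in all 3 comparisons. Cyc1, the cytochrome c1 of this complex, falls outside the naming rule and had 12996, 19635 and 18426.

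Complex IV reduces oxygen, and its nuclear subunits had the highest complex median at 0.1 h against 0.0 h among complexes with more than 1 measured gene. Of 11 genes, 9 were higher, 5 at least 2-fold, and 1 was at least 2-fold lower, with a median log2 difference of 1.00. Over all genes, 49.8% were higher in that comparison, 5.68% at least 2-fold, and 4.71% were at least 2-fold lower. At 1.0 h, 8 of 11 were still higher than at 0.0 h, with a median of 0.48, and 8 of 12 were lower than at 0.1 h, with a median of -0.40. Over all genes, 51% were higher at 1.0 h than at 0.0 h and 50% higher at 1.0 h than at 0.1 h. Under spike-in scaling the complex IV medians of 1.00, 0.48 and -0.40 were 0.72, 0.68 and 0.07.

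Cox7b, a small subunit, had 371.0, 1254 and 1506, 3.38-fold and 4.06-fold above a dim 0.0 h value, from 1 probe set. Cox5b had 3630, 9429 and 5505 and was 2.60-fold higher at 0.1 h than at 0.0 h. Cox6b1 had 7331, 17205 and 5909, 2.35-fold above 0.0 h at 0.1 h and 2.91-fold lower again at 1.0 h. Cox7b thus stayed high at 1.0 h, Cox5b came down part of the way and Cox6b1 ended below its 0.0 h value.

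Cox6c, a further small subunit, had 344.5, 775.3 and 543.4, close to the floor at 0.0 h, and was 2.25-fold higher at 0.1 h. Cox7a2l, known for joining complexes III and IV into supercomplexes, had 5827, 11668 and 7481, and its other probe set had 504.4, 947.8 and 687.7. Both Cox7a2l probe sets peaked at 0.1 h, and the gene was under 2-fold with the values as deposited, where its log2 difference was 0.97. Cox5a had 789.7, 757.7 and 476.7 on its only probe set with a single symbol and was 1.66-fold lower at 1.0 h than at 0.0 h.

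Several complex IV subunits exist in tissue forms, and the forms of subunit 4 parted at 0.1 h while those of subunit 6a did not. The forms of subunit 8 could not be compared there, because Cox8b was below the floor at 0.0 h. Cox4i1, the common form of subunit 4, had 44319, 62547 and 77759, and all 3 of its probe sets were higher at 0.1 h and at 1.0 h than at 0.0 h. From 0.1 h to 1.0 h, 2 of the Cox4i1 probe sets were higher and 1 was lower, going from 7587 to 4180. Cox4i2, the form known from lung and from low oxygen, had 2491, 1103 and 2646 from 1 probe set, 2.26-fold lower at 0.1 h than at 0.0 h and 2.40-fold higher at 1.0 h than at 0.1 h. On the 0.1 h array Cox4i1 was above and Cox4i2 below its 0.0 h value. Whether this difference exceeds the error of an array was not tested.

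For subunit 6a, the common form Cox6a1 had 23127, 46250 and 37839, and a second probe set had 4719, 15330 and 7242. The heart and muscle form Cox6a2 had 544.9, 809.1 and 489.0 on its brightest probe set, and its other 2 were below the floor on all 3 arrays. For subunit 8, the common form Cox8a had 64448, 84043 and 89829, and its 4 probe sets were all higher at 0.1 h than at 0.0 h, with log2 differences of 0.38 to 1.16. From 0.1 h to 1.0 h the brightest Cox8a probe set was higher and the other 3 were lower. Of 9 skeletal muscle markers on the array, only Myh1 was above the floor on all 3 arrays, and their summed intensity was 1793, 2722 and 3442. Ckm, with 146.7, 477.8 and 496.8, was below the floor at 0.0 h and above it on the later arrays, as Cox8b was. Myh4 and Atp2a1 passed the floor at 1.0 h alone, with 292.4 and 346.3, and Acta1, Myh2, Tnnt3, Tnni2 and Pvalb on no array. The part of muscle tissue in the Cox6a2 and Cox8b values was not tested.

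Complex V had the smallest median difference between 0.1 h and 0.0 h, with 7 of 10 genes higher, 1 at least 2-fold and a median log2 difference of 0.21. That median was -0.07 under spike-in scaling. Under the main scaling 49.8% of all genes were higher and 5.68% at least 2-fold. At 1.0 h all 10 were lower than at 0.1 h, where 50% of all genes were higher. The complex V median there was -0.37, which became 0.10 under spike-in scaling. Against 0.0 h the 1.0 h median was -0.17, and it was 0.03 in that scaling.

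The F1 part of the synthase holds the catalytic sites, and its 5 genes stayed within 1.62-fold. Atp5f1a, the alpha subunit, had 38506, 33503 and 30888, and Atp5f1b, the catalytic beta subunit, had 64138, 52228 and 39655. Both were highest at 0.0 h and lowest at 1.0 h. The gamma subunit gene Atp5f1c was level, with 21525, 21961 and 20988, and the delta subunit gene Atp5f1d had 3926, 3667 and 3150. The epsilon subunit gene Atp5f1e had 15276, 17330 and 10890. All 5 were lowest at 1.0 h, as 31.5% of all genes measured on the 3 arrays were. A second, dim Atp5f1e probe set had 271.2, 1407 and 522.0 and differed by 2.38 on the log2 scale between 0.1 h and 0.0 h, where the brightest gave 0.18.

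The genes of the outer stalk were higher at 0.1 h than at 0.0 h in 4 of 4 cases. Atp5pd, the d subunit, stood apart with 2429, 6251 and 2875, 2.57-fold above 0.0 h and 2.17-fold lower again at 1.0 h, from 1 probe set. Atp5pb, Atp5pf and Atp5po had log2 differences of 0.25, 0.28 and 0.23 at 0.1 h. Atp5pb, with 16060, 19161 and 18884, was the only one of the 4 to stay near its 0.1 h level at 1.0 h.

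Atp5if1 codes the inhibitor that stops the synthase from running backwards and using up ATP. Its brightest probe set had 26125, 46165 and 29313, and another, nearly as bright, had 27681, 25747 and 22293. The first was highest at 0.1 h and the second at 0.0 h, so the direction at 0.1 h depended on the probe set. Another, dim one gave 343.7, 619.7 and 354.2.

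Ndufaf3, an assembly factor of complex I, was the only gene of the group at least 2-fold lower at 1.0 h than at 0.0 h. It had 5740, 3597 and 2510, a 2.29-fold lower value at 1.0 h. Its other probe sets had 983.0, 650.2 and 333.6, and 429.1, 452.8 and 272.5, so all 3 were lowest at 1.0 h. Under spike-in scaling it was just under 2-fold.

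Probe sets of the same gene could be compared for 19 genes between 0.1 h and 0.0 h. In 13 all were higher at 0.1 h, in 0 all were lower, and in 6 they went both ways: Ndufb8, Uqcr11, Uqcrfs1, Atp5f1d, Atp5if1 and Ndufaf3. From 0.1 h to 1.0 h all were lower in 12 of 18, all higher in 1 and mixed in 5. From 0.0 h to 1.0 h all were higher in 8 of 18, all lower in 5 and mixed in 5. No such count over all genes is given, so these counts have no share to be read against. The second-brightest probe sets of all genes also leaned upward at 0.1 h against 0.0 h. There 8.96% were at least 2-fold higher and 1.24% lower, with a median log2 difference of 0.14. Probe sets named alike but for _at and _g_at read the same source sequence and are not independent.

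**Figure D5:**
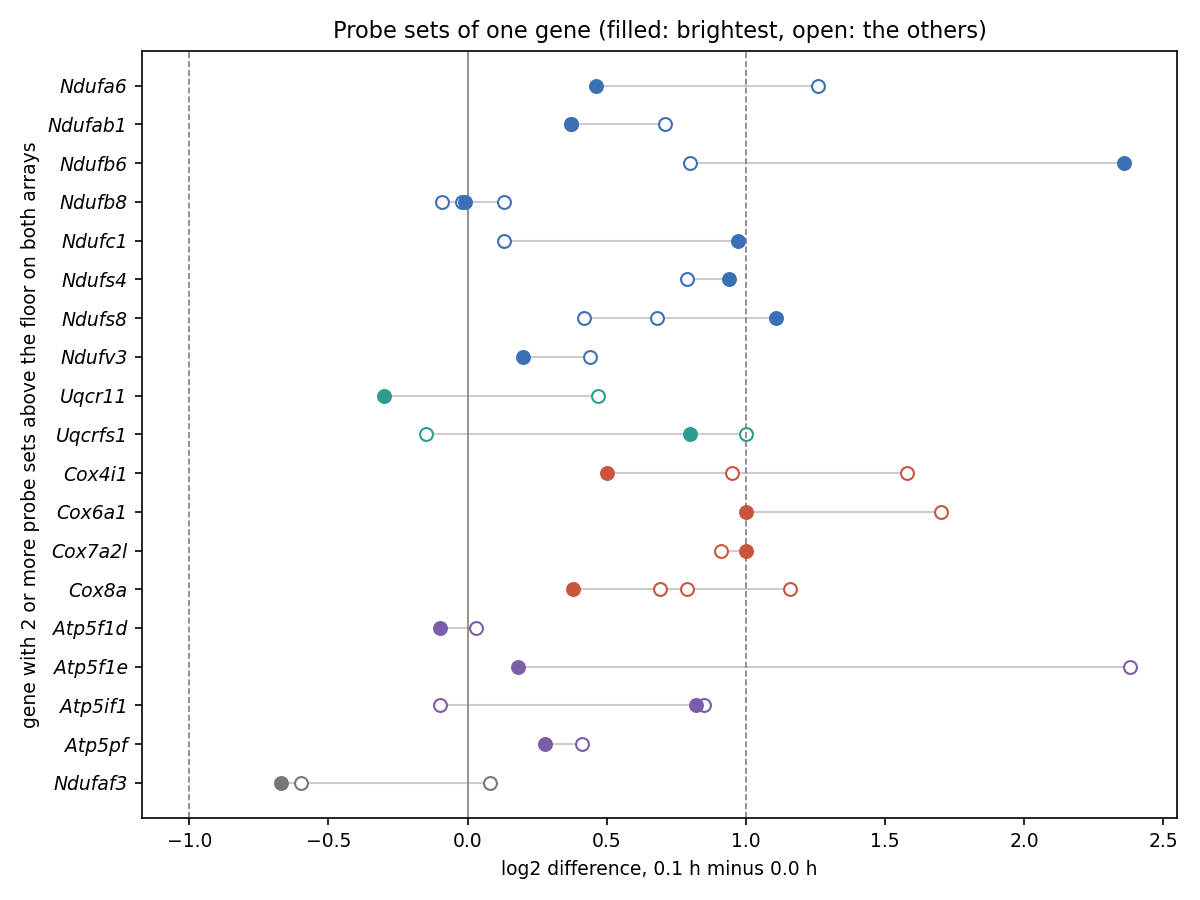
Each row is 1 of the 19 genes with 2 or more probe sets above the floor on the 0.0 h and 0.1 h arrays, and each circle is a probe set at its log2 difference, filled for the brightest. Most rows lie right of 0, and Ndufb6 and Atp5f1e span the widest ranges, from 0.80 to 2.36 and from 0.18 to 2.38.

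Other genes of mitochondrial energy metabolism were read beside these. Of a list of 89 such genes outside the naming rule, 30 were on the array, and 24 were measured at 0.0 h and 0.1 h. At least 2-fold higher at 0.1 h were 4 of 24, or 16.7% against 5.68% of all genes. At least 2-fold lower was 1, or 4.17% against 4.71%. The median log2 difference was 0.15, beside 0.55 for the chain and synthase genes. From 0.1 h to 1.0 h none of 24 was at least 2-fold higher, against 4.04% of all genes. At least 2-fold lower were 4, or 16.7% against 5.06% of all genes, with a median of -0.28. From 0.0 h to 1.0 h, 0 of 25 were at least 2-fold higher and 1 was lower, against 2.34% and 2.64% of all genes, with a median of -0.05.

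The mitochondrially encoded subunits of complex IV were measured for all 3 genes. COX3 had 15447, 73742 and 20486 and was 4.77-fold higher at 0.1 h than at 0.0 h and 3.60-fold lower again at 1.0 h. COX2, which takes electrons from cytochrome c, had 11025, 26440 and 17181, 2.40-fold higher at 0.1 h. COX1, the catalytic subunit, had 104922, 116950 and 130709 on its brightest probe set and 47201, 59344 and 32559 on the other. COX3 and COX2 thus peaked at 0.1 h like most nuclear subunits, while the COX1 probe sets differed at 1.0 h.

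Among the rest, Ucp2, a carrier of the inner membrane named for uncoupling, had 12522, 31705 and 16906, 2.53-fold higher at 0.1 h. Etfdh, which feeds electrons from fatty acid oxidation to ubiquinone, had 1496, 3341 and 2020, 2.23-fold higher. Nubpl, an iron-sulfur assembly factor of complex I, had 4026, 1952 and 3103 and was 2.06-fold lower at 0.1 h. The citric acid cycle gene Suclg1 had 19408, 17900 and 6886, 2.82-fold lower at 1.0 h than at 0.0 h. The pyruvate dehydrogenase subunit gene Dlat had 17198, 31541 and 10882, and the ADP/ATP carrier gene Slc25a5 had 17545, 28992 and 12775. Both peaked at 0.1 h and were 2.90-fold and 2.27-fold lower at 1.0 h. Of 7 genes of the citric acid cycle and pyruvate dehydrogenase measured at 0.0 h and 0.1 h, none was 2-fold apart between them. As 5.68% of all genes were at least 2-fold higher and 4.71% lower there, so short a list may hold none.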

How the data were processed

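Per the labels, total RNA of 3 rat samples was measured, 1 array each. As deposited, each probe set has 1 value per array, an intensity on a linear scale. No label or file used here names the array software, its summary method or a background correction. The deposited intensity values had means of 2503.7 to 2503.9 after trimming 2% of each tail, so the arrays had been scaled to a common mean. Genes were named through the platform annotation: of 8740 probe sets other than controls, 7006 had 1 gene symbol, 308 several and 1426 none. Those with several symbols stood for no gene. All 55 genes of the group matched a RefSeq gene ID with the same symbol.

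Intensities were taken to log2 and set to a common array median. A second shift of each array then equalised the medians of those probe sets that passed the floor throughout. Both steps together moved the log2 values by 0.008 at 0.0 h, 0.042 at 0.1 h and -0.050 at 1.0 h. Genes were counted at 2-fold. No test was possible with 1 array per label. The code for scaling and counting was run on simulated arrays with known changes in bright probe sets only. Their noise was set below the spread between the arrays used here. That run checked the code and says nothing on how certain the 2-fold counts are. The members, lists, comparisons and alternatives were chosen with earlier results of these data known. Values were printed for genes at least 2-fold apart in any comparison, genes below the floor on 1 or 2 arrays, tissue forms of a subunit and all genes of complexes II and III, with other values added after they had been seen. Marker lists of adrenal cortex, red cells and testis were also read: 0 of 3, 3 of 3 and 0 of 4 genes were above the floor on all 3 arrays. As alternatives, no rescaling at all was tried, then quantile normalisation, cyclic loess with R 4.3.3 and limma 3.58.1 (used for both), equal means of 9 spike-in controls, floors at the 20th and 60th percentile, averaging a gene's probe sets, and its second-brightest one without _g_at sets. Python 3.11.15 with pandas 2.3.3 and numpy 2.4.6 was used.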

Additional observations from a re-analysis of the deposited data

How the results depend on the processing

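With 1 array per label the number of arrays limits every value, and probe sets near the floor are the least certain. No paired analysis was possible because each label has 1 array. For 0.1 h against 0.0 h, the spike-in scaling gave 7 genes at least 2-fold higher and a median of 0.27, a shift common to all genes. Second-brightest probe sets, which exist for few genes, gave 2 higher and 0 lower of 12 and a median of 0.75. Of all genes with such a probe set, 8.96% were higher and 1.24% lower, with a median of 0.14. For 1.0 h against 0.0 h, the spike-in scaling gave 0 lower and a median of 0.25. The floor at the 60th percentile gave 3 higher, or 6.52% against 1.47% of all genes. The mean of all probe sets turned the median to -0.04. Second-brightest probe sets gave 0 higher, 2 lower and 0.18, where 3.96% of all genes with such a probe set were higher and 1.98% lower. For 1.0 h against 0.1 h, quantile normalisation gave 2 higher and a median of -0.21, and cyclic loess a median of -0.27. The mean of all probe sets gave 2 higher, or 3.92% against 3.62% of all genes. The spike-in scaling gave 2 higher, 2 lower and a median turned to 0.10. Second-brightest probe sets gave 0 higher, 1 lower and -0.65, where 1.39% of all genes with such a probe set were higher and 5.31% lower. Apart from the construction of each setting, the cause was not tested. The other counts over the whole group stayed within 1.5 times and its other medians within 0.1. Of the single complexes, complex IV had medians of 0.75 (0.1 h against 0.0 h) and -0.08 (1.0 h against 0.1 h) with the 60th percentile floor, and 0.36 (1.0 h against 0.0 h) and -0.55 (1.0 h against 0.1 h) with the mean of probe sets. For 1.0 h against 0.1 h, quantile normalisation gave -0.43 for complex I and -0.19 for complex V, cyclic loess -0.24 for complex V, and the mean of probe sets turned complex III from 0.33 to -0.30. Complex V was at 0.10 with quantile normalisation for 0.1 h against 0.0 h and at -0.02 with the mean of probe sets for 1.0 h against 0.0 h. Second-brightest probe sets also turned some signs, on few genes. With 2 genes, complex III was at -0.94 for 1.0 h against 0.1 h and at -0.21 for 1.0 h against 0.0 h. With 5 genes, complex I was at 0.32 for 1.0 h against 0.0 h. With 1 gene, complex V was at -0.10 for 0.1 h against 0.0 h. Single genes at least 2-fold apart kept their direction in all 94, 42 and 71 values under the alternatives of the 3 comparisons, of which 13, 2 and 13 were under 2-fold. These genes were chosen as 2-fold apart on the same arrays, and several settings shift all genes of an array alike. The count is therefore no test of their direction.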

Other observations

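Another 6 probe sets carried a chain or synthase symbol together with that of a related gene, so they were read for no gene above. All 6 were higher at 0.1 h than at 0.0 h, and all 6 were lower at 1.0 h than at 0.1 h. Of all genes, 49.8% were higher in the first comparison and 50% in the second. In the second the log2 differences of the 6 ran from -1.21 to -0.27. Spike-in scaling moved the median of all genes there from 0.00 to 0.47, so the count of lower sets depends on the scaling. The set shared by Ndufb4 and Ndufb4l4 read 5131 at 0.0 h, 8638 at 0.1 h and 3745 at 1.0 h, 2.31-fold lower at 1.0 h than at 0.1 h. The set shared by Cox7a2 and Cox7a2l2 had 6043, 11891 and 7789 in the same order, and that shared by Cox5a and LOC100361008 had 13662, 22226 and 12722. The latter was 1.63-fold higher at 0.1 h than at 0.0 h, where the Cox5a probe set with a single symbol was 1.04-fold lower. The sets of Atp5mc1 and Atp5mc2, which code the ring subunit c of ATP synthase, had 2399, 3687 and 2967, and 8826, 13728 and 9641. The set of Ndufs5 and its pseudogene Ndufs5-ps2 had 7786, 11065 and 9205.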
